A study of Arabidopsis thaliana with 9 samples.

Results

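LEC1 (AT1G21970), L1L (AT5G47670, listed as NF-YB6), LEC2 (AT1G28300), FUS3 (AT3G26790), ABI3 (AT3G24650) and BBM (AT5G17430) are master regulators of embryo development in Arabidopsis thaliana. These 6 genes, among 27444 nuclear protein-coding genes, were listed by locus. The list was drawn up with earlier results of these data known. They were examined in maps of H3K27me1 and H3K27me3, the mono- and trimethylated forms of lysine 27 of histone H3. The chromatin came from sperm nuclei of htr10 mutant plants, sorted by SYBR Green I fluorescence and digested to mononucleosomes with micrococcal nuclease. HTR10 encodes a histone H3 variant of sperm. The 9 samples, all labelled htr10, comprised 3 immunoprecipitations for each mark and 3 inputs, which were digested chromatin without antibody. The ecotype was labelled Col-0 for 5 samples, and Col-1, Col-2, Col-3 and Col-4 for 1 sample each. Wild-type sperm was not analysed here, and the mutation's effect cannot be read from these values.

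LEC1 and L1L belong to the NF-YB family, subunits of a trimeric factor that binds CCAAT boxes. LEC2, FUS3 and ABI3 carry the plant-specific B3 DNA-binding domain, and BBM is an AP2-domain factor related to the PLETHORA proteins. LEC1, LEC2, FUS3 and ABI3 form the LAFL network, which switches on embryo identity, seed storage and maturation programmes. Forced expression of LEC1, LEC2 or BBM can start embryo formation on seedlings. After germination the LAFL genes are silenced, and H3K27me3 laid down by Polycomb is known to take part. The VAL proteins are among the factors that bring Polycomb to them. H3K27me1 is known in Arabidopsis mainly from silent heterochromatin.

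The values are those of 1 broad and 1 narrow peak list per mark, with positions in TAIR10. A broad peak joins stretches of weak enrichment, and a narrow peak marks a more strongly enriched core. Values per sample are missing from the lists. A spread between samples, or a test between conditions, therefore could not be given, and the depth is unknown. The fold (enrichment over background, as a ratio) and the −log10 q of a peak are the authors' values. Coverage is the percentage of bases of a gene, or of the 2 kb on either side of it, that lay under peaks. The gene table gives neither strand nor exons. The flanks are therefore called left (lower coordinates) and right (higher coordinates), and which flank holds the promoter is not stated.

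The peaks lay beside these genes more than in them, and the same 4 genes had peaks of both marks nearby. A broad H3K27me1 peak reached the 2 kb flanks of LEC1, LEC2, ABI3 and BBM, 4 of 6 genes, against 55.4% of all protein-coding genes. A broad H3K27me3 peak reached the flanks of the same 4 genes, against 61.6%. Of all genes, 50.8% had a peak of each mark in at least 1 flank, not necessarily the same flank. In the gene body, H3K27me1 touched LEC1 alone (1 of 6, against 22.7% of all genes). H3K27me3 touched LEC1 and ABI3 (2 of 6, against 26%). Only LEC1 had both marks in the body, against 17.5% of all genes. No gene of the 6 was covered over at least 50% of its body, a state reached by 5.49% of all genes for H3K27me1 and 5.67% for H3K27me3. L1L and FUS3 had no base of either mark in the body or flanks, like 33% of all genes. With 6 genes, these counts are close to the background shares.

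**Figure D1:**
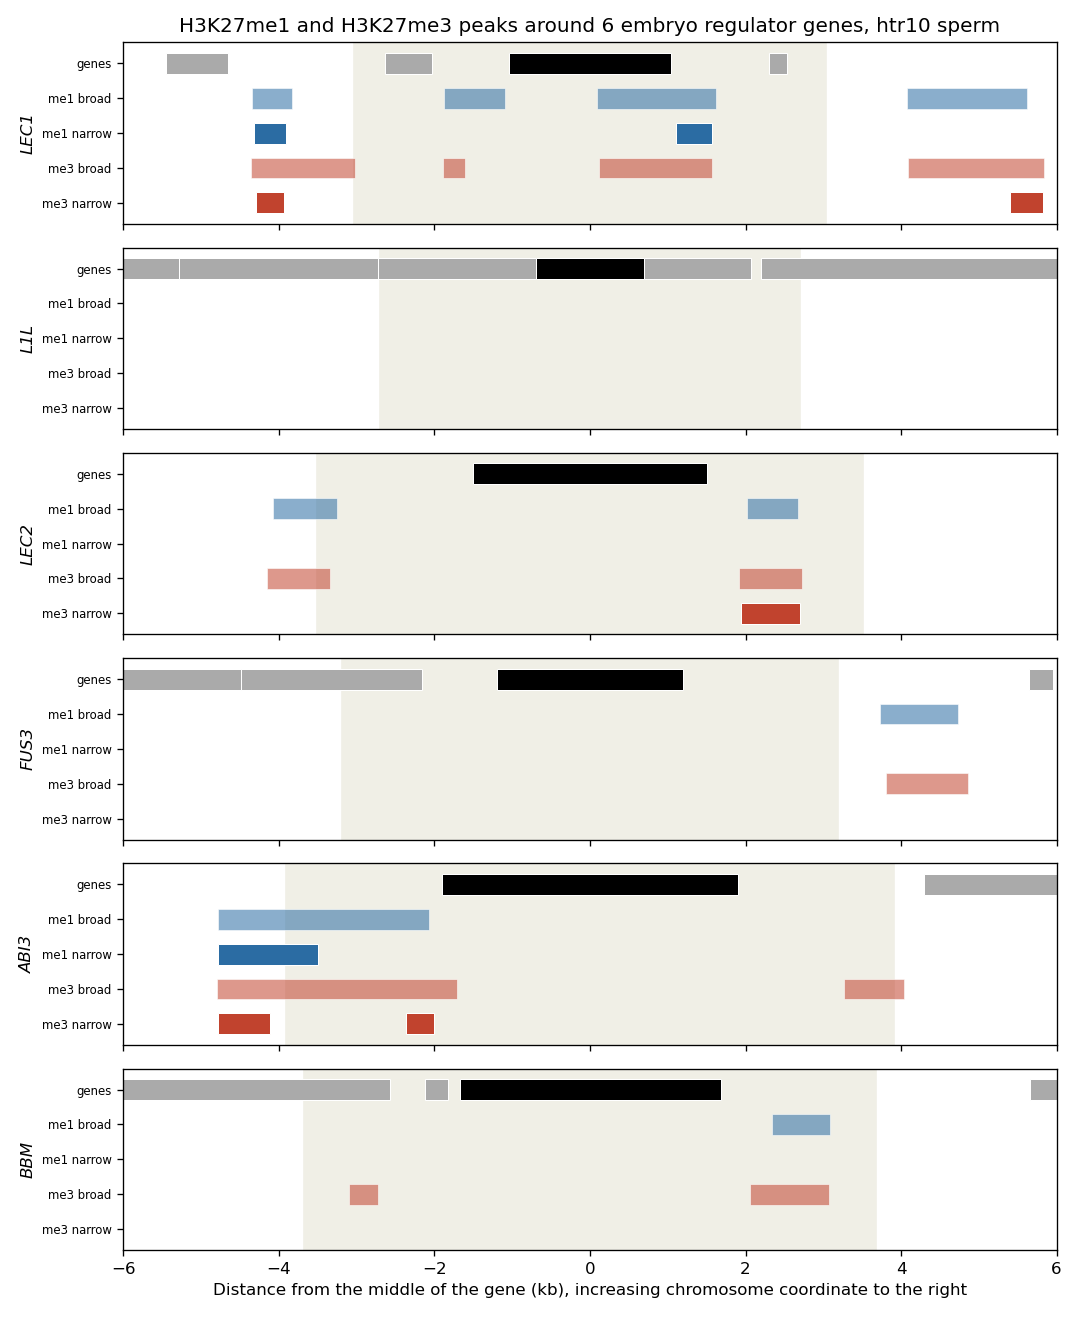
Peaks around each gene, drawn to scale against the distance from the middle of the gene in kb. Black bars are the named gene, grey bars other annotated genes, pale bars broad peaks and dark bars narrow peaks of H3K27me1 (blue) and H3K27me3 (red), and the shaded band is the gene with its 2 kb flanks. LEC1 has both marks over its right part, LEC2, ABI3 and BBM have them mainly outside the gene, and L1L and FUS3 have none in the band.

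LEC1, the founding NF-YB member of the network, was the only gene of the set with a substantial part of its body marked. H3K27me1 covered 45.6% of the body (946 of 2073 bp) and H3K27me3 44.6% (924 bp). Both marks lay in the same place: the H3K27me1 peak began 54.4% of the way along the gene from its left edge, the H3K27me3 peak 55.4%, and both ran past the right edge. The left part of the gene up to these points had no peak. All 924 bp under H3K27me3 were also under H3K27me1.

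The H3K27me1 peak over LEC1 lay on chromosome 1 from 7728704 to 7730239 and was 1536 bp wide (fold 1.64, −log10 q 3.21). The H3K27me3 peak ran from 7728726 to 7730184, 1459 bp (fold 1.69, −log10 q 2.69). Both were of ordinary strength, since 66.1% of H3K27me1 and 62.4% of H3K27me3 broad peaks had a lower fold. Past the right edge they covered 29.5% and 26.8% of the flank. The narrow H3K27me1 list placed its peak from 7729718 to 7730186, starting 69 bp outside the gene (fold 2.22, −log10 q 9.92). The most enriched H3K27me1 stretch was therefore in the right flank, with its summit 413 bp from the gene edge, and not in the body. H3K27me3 had no narrow peak there, and its nearest one was 2901 bp away.

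In the broad lists, the left flank of LEC1 was where the marks differed most at this gene. H3K27me1 covered 39.2% of it with a peak of 783 bp from 7726740 to 7727522, which ended 55 bp short of the gene (fold 1.57). H3K27me3 covered 15.2%, mainly with a peak of 290 bp from 7726717 to 7727006, which ended 571 bp short of it (fold 1.55, −log10 q 1.53). Only 11.9% of H3K27me3 broad peaks had a lower −log10 q than that one. For the H3K27me1 peak of 783 bp, 33.7% of its list had a lower −log10 q. The H3K27me1 peak thus came nearer the gene than any H3K27me3 peak in this flank, and the bases between it and the gene had neither mark. Without samples the difference could not be tested, and it depended on the list. With −log10 q of at least 2, the left flank had 39.2% under H3K27me1 and 0.65% under H3K27me3. With the upper 50% of broad peaks by fold it had 0% and 0.65%. In the narrow lists the left flank had 0% of both marks, and the right flank had 23.5% under H3K27me1 and 0% under H3K27me3.

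L1L, the closest relative of LEC1 and also active in the embryo, stood at the other end of the set. Its body of 1392 bp and both flanks were at 0% for both marks in the broad and narrow lists. The nearest broad peak was 13065 bp away for H3K27me1 and 13045 bp for H3K27me3. Of all protein-coding genes, 3.59% were as far or farther from any broad peak, and the median gene was 326 bp away. L1L also had the most crowded surroundings of the set. It overlapped its annotated neighbour on either side, by 116 bp on the left (AT5G47660) and 124 bp on the right (TRM10), and 3.2% of its flanks were free of annotated genes, against a median of 44.3%. Among the 928 protein-coding genes with no more gene-free flank than L1L, 83.7% had no broad peak of either mark in the body or flanks. The part of this spacing in the lack of peaks was not tested.

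**Figure D2:**
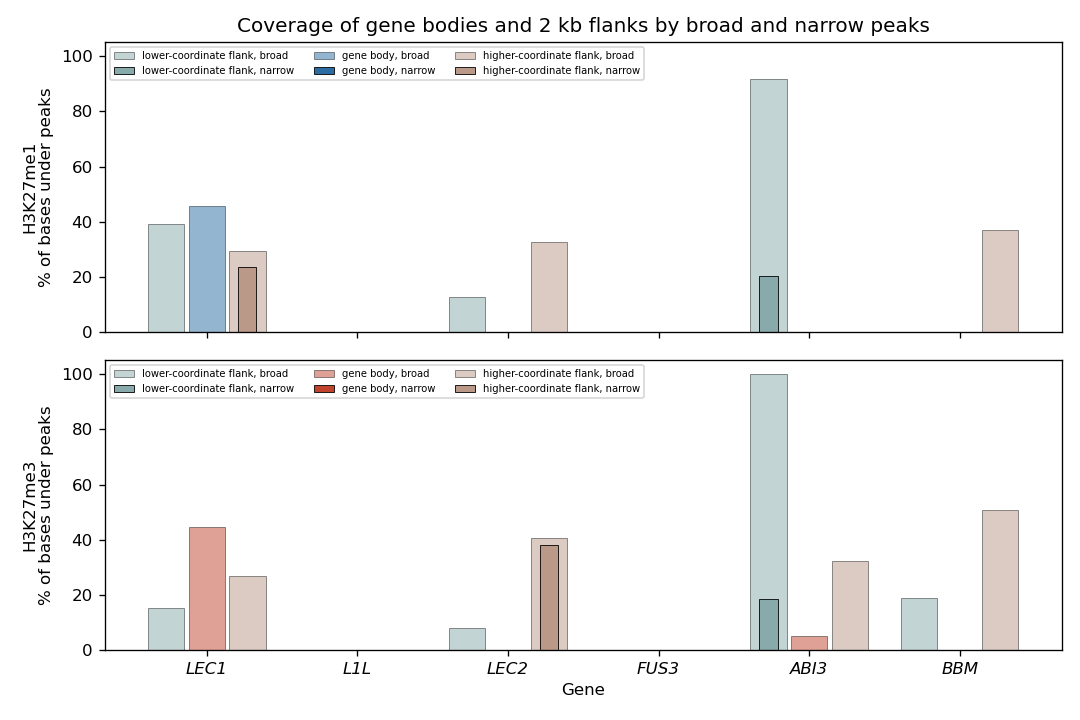
Percentage of bases under peaks in the left flank, the gene body and the right flank of each gene, with H3K27me1 above and H3K27me3 below. Wide pale bars are broad peaks and thin dark bars narrow peaks. The ABI3 left flank is the most covered window, at 91.7% and 100%, and no gene body holds a narrow peak.

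LEC2, a B3 factor that can induce somatic embryos, had an unmarked body between flanking peaks. Neither mark had a base in its 3010 bp. In the right flank H3K27me1 covered 32.6% with a chromosome 1 peak at 9900388 to 9901039, starting 512 bp beyond the gene (fold 1.46, −log10 q 2.35). H3K27me3 covered 40.6% with a peak at 9900281 to 9901091, starting 405 bp beyond it (fold 1.65, −log10 q 3.42). The whole H3K27me1 peak lay inside the H3K27me3 peak.

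In the narrow lists only H3K27me3 had a peak at this site. H3K27me3 had a narrow peak of 765 bp at 9900312 to 9901076 (fold 2.03, −log10 q 7.41), and its summit was 689 bp from the gene. The nearest narrow H3K27me1 peak was 10381 bp from LEC2. Without values per sample, a difference between the marks at this site could not be tested. On the left, peaks of both marks entered the outer end of the flank, covering 12.8% for H3K27me1 and 8.05% for H3K27me3. Their folds were 1.38 and 1.54, and they ended 1745 and 1840 bp short of the gene. That H3K27me1 peak was among the weaker ones of its list, with 3.02% of peaks at a lower fold. Both flanks of LEC2 were wholly free of other annotated genes.

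FUS3, a B3 factor of seed maturation, had no peak in its 2385 bp or within 2 kb. The nearest peaks of both marks lay on the right side and overlapped each other. The H3K27me1 peak on chromosome 3 from 9858750 to 9859745 began 2538 bp beyond the gene, with a fold of 1.35. The H3K27me3 peak from 9858826 to 9859880 began 2614 bp beyond it, with a fold of 1.42. Both were weak, with 1.23% of H3K27me1 and 1.90% of H3K27me3 broad peaks at a lower fold. Unlike L1L, FUS3 had open surroundings, with 74.1% of its flanks free of annotated genes. Of the 6586 genes with at least the gene-free share of BBM (64.8%), which include FUS3, 13.1% had no broad peak of either mark in the body or flanks.

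ABI3, the B3 factor that transmits abscisic acid responses in the seed, had the most heavily covered flank of the set. H3K27me1 covered 91.7% of the left flank and H3K27me3 100% of it. The H3K27me1 peak ran on chromosome 3 from 8994493 to 8997202, 2710 bp, and ended 168 bp short of the gene (fold 1.59, −log10 q 3.60). The H3K27me3 peak ran from 8994478 to 8997568, 3091 bp, and crossed into the gene for 199 bp, which was 5.21% of the body (fold 1.79, −log10 q 4.75). The H3K27me1 peak lay wholly inside it. Of H3K27me3 broad peaks 79.8% had a lower fold, the highest rank of any broad peak touching the set.

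Inside this domain the narrow lists gave 2 H3K27me3 cores and 1 H3K27me1 core. The far H3K27me3 core, at 8994490 to 8995168, lay just outside the 2 kb flank (fold 2.37, −log10 q 16.0). The H3K27me1 core, at 8994498 to 8995777, began at nearly the same place (fold 1.73, −log10 q 7.64). Their summits were at 8994601 for H3K27me3 and 8994611 for H3K27me1. The near H3K27me3 core, from 8996906 to 8997275, ended 95 bp short of the gene with a fold of 2.21, and no narrow H3K27me1 peak overlapped it. The right flank had H3K27me3 alone, covering 32.4% with a peak from 9002538 to 9003317 (fold 1.67) that no H3K27me1 peak overlapped.

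BBM, the AP2 factor, had an unmarked body of 3356 bp, and the peaks on its right side were weak. In the right flank H3K27me1 covered 37% with a chromosome 5 peak at 5746416 to 5747155 (fold 1.40, −log10 q 1.46). H3K27me3 covered 50.8% at 5746131 to 5747146 (fold 1.48, −log10 q 1.53). They shared 731 bp. Both were near the bottom of their lists, with 5.51% of H3K27me1 and 9.56% of H3K27me3 broad peaks at a lower fold.

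The left flank of BBM held H3K27me3 alone, 18.8% of it, in a peak of 375 bp from 5740974 to 5741348. Its fold of 1.65 was above that of 54.2% of H3K27me3 broad peaks. This peak lay entirely in the neighbouring gene IRX3, which encodes a cellulose synthase subunit of the secondary cell wall. It was the only peak reaching into the flanks of the set that touched another annotated gene. No narrow peak of either mark lay within 10 kb of BBM.

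Over the 6 genes together, the marks overlapped about as much as they did around genes in general. In bodies and flanks H3K27me1 covered 5800 bp and H3K27me3 6972 bp of 40032 bp, and 5103 bp were under both. The shared bases were 88.0% of the H3K27me1 and 73.2% of the H3K27me3 bases, against 78.2% and 71.7% over the windows of all protein-coding genes. All 6 broad H3K27me1 peaks in these windows had bases of H3K27me3, as did 7 of the 9 H3K27me3 peaks in the other direction. The exceptions were the right flank of ABI3 and the left flank of BBM. The share of all peaks that overlap the other mark is not given, so these peak counts cannot be called particular to the set. In the narrow lists, 0 of 6 bodies held H3K27me1 (against 8.5% of all genes) or H3K27me3 (8.25%). H3K27me1 reached a flank of LEC1 and ABI3 (2 of 6, against 31.6%) and H3K27me3 a flank of LEC2 and ABI3 (2 of 6, against 33.4%). L1L, FUS3 and BBM had no narrow peak in body or flanks, 3 of 6, against 59.8%. Narrow peaks covered 877 bp for H3K27me1 and 1135 bp for H3K27me3 of these windows, all in flanks, and shared 0 bp. Around all genes 65.0% of narrow H3K27me1 bases and 70.9% of narrow H3K27me3 bases were shared. The 0 bp rests on 2 narrow peaks per mark and on the edge of the window: the narrow H3K27me1 peak left of ABI3 shared 671 bp (52.4% of its length) with the far H3K27me3 core, just past the 2 kb flank.

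The median coverage over both flanks was 20.6% for H3K27me1 (range 0 to 45.8%) and 22.6% for H3K27me3 (range 0 to 66.2%). Over all protein-coding genes the medians were 8.03% and 11.6%. The means lay closer, at 20.2% in the set against 18.1% for H3K27me1 and 24.4% against 19.7% for H3K27me3. Under the narrow lists the flank medians were 0% in the set and over all genes. For the body, the medians were 0% in the set and over all genes, for both marks. H3K27me3 lay in both flanks of 4 of 6 genes, LEC1, LEC2, ABI3 and BBM, against 21% of all genes. H3K27me1 lay in both flanks of LEC1 and LEC2, 2 of 6, against 18.6%. These counts, added after the data were seen, depended on the window and the list. With flanks of 1 kb each mark lay in both flanks of 1 gene, LEC1, against 14.9% of all genes for H3K27me3 and 13.6% for H3K27me1. With the upper 50% of broad peaks by fold they were 2 genes for H3K27me3 (against 7.78%) and 0 for H3K27me1 (7.48%), and the narrow lists gave 0 for both. The flanks of 5 of the 6 genes had more gene-free sequence than those of the median gene, between 64.8% and 100%. Among the 6586 genes with at least 64.8%, 44.9% had H3K27me3 and 42.4% had H3K27me1 in both flanks. In these genes a peak in at least 1 flank was found for 82.6% with H3K27me3 and 78.5% with H3K27me1. No test was made with 6 genes, and the part of open surroundings in the counts was not tested.

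**Figure D3:**
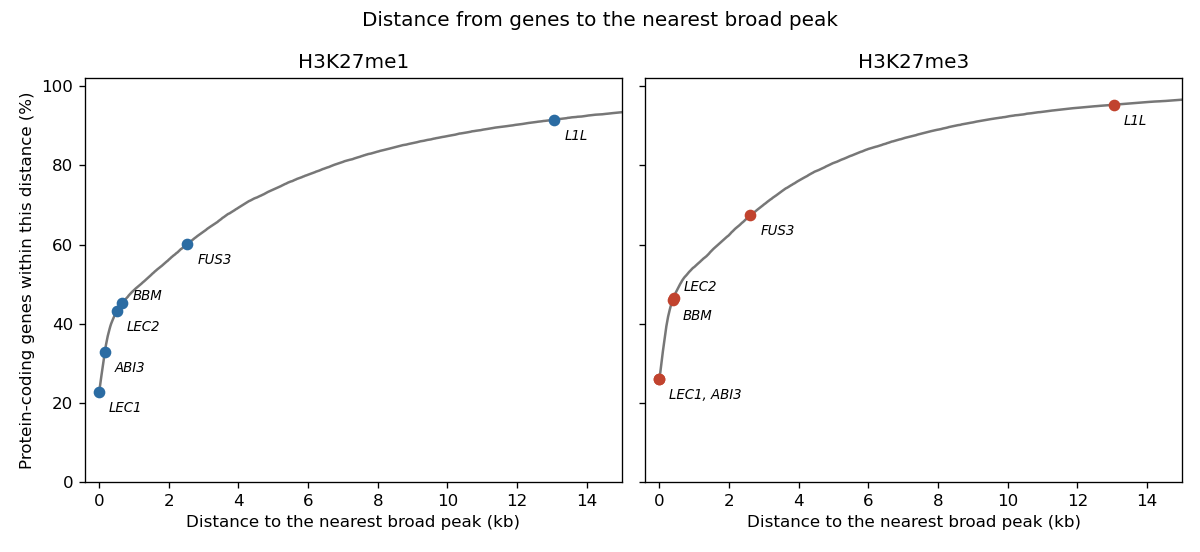
Share of all protein-coding genes (percent, grey line) whose nearest broad peak lies within the distance on the horizontal axis in kb, for each mark, with the 6 genes as points. LEC1 and, for H3K27me3, ABI3 are touched by a peak, LEC2 lies at 512 and 405 bp, BBM at 668 and 383 bp, FUS3 at 2538 and 2614 bp and L1L at 13065 and 13045 bp.

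The broad peaks near the set ran from near the bottom of their lists to the ABI3 H3K27me3 peak, which outranked 79.8% of its list by fold and 85.4% by −log10 q. The 6 H3K27me1 peaks in bodies and flanks had folds of 1.38 to 1.64 and a highest −log10 q of 3.60. The 9 H3K27me3 peaks had folds of 1.48 to 1.79 and a highest −log10 q of 4.75. By fold, 2 of the 6 and 6 of the 9 lay above the median of their lists (1.57 and 1.64). Among genes with an H3K27me3 peak in the body or flanks, the strongest one had a median fold of 1.67 (quartiles 1.57 and 1.79). ABI3 had 1.79, LEC1 1.69, and BBM and LEC2 1.65 each, all between these quartiles. For H3K27me1 the median was 1.59 (quartiles 1.51 and 1.71). LEC1 had 1.64 and ABI3 1.59, while LEC2 with 1.46 and BBM with 1.40 lay below the first quartile.

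Other genes with the most similar peak pattern were sought by comparing coverage in 40 bins over the body and flanks, in both lists of both marks and in either orientation. LEC1 was closest to JAZ1, a repressor of jasmonate signalling, with a mean difference of 5.62 percentage points per bin. JAZ1 was covered 46.0% by H3K27me1 and 44.7% by H3K27me3 in the body. Its flanks had 11.7% and 10.9%, less than either flank of LEC1 for each mark. AT1G62050 came next (6.21). LEC2 was closest to POR (2.29) and AT3G28600 (2.41), ABI3 to NAC001 (3.77) and AT5G17010 (3.87), and BBM to AT5G22760 (1.94) and AT1G25530 (2.05). Each of these last 6 genes had 0% in the body and peaks of both marks in the flanks. The differences per bin compare with 19.6 points between LEC1 and a pattern without peaks, 17.1 for ABI3, 8.27 for LEC2 and 6.66 for BBM. L1L and FUS3 had no pattern to match.

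The wider embryo network was described with 31 further genes in 5 lists. H3K27me1 touched the body of 10 of them (32.3%) and H3K27me3 13 (41.9%), against the 22.7% and 26% of all genes given above. The flanks held H3K27me1 in 18 (58.1%, against 55.4% of all genes) and H3K27me3 in 24 (77.4%, against 61.6%). Among the 6586 genes with at least 64.8% of gene-free flank, H3K27me1 reached a flank in 78.5% and H3K27me3 in 82.6%. The gene-free share of the 31 network genes is not given. Neither mark lay in the body or flanks of 7 genes of the 31, against 33% of all genes. Of the bodies, 8 had both marks (against 17.5% of all genes), 5 H3K27me3 alone and 2 H3K27me1 alone. The share of all genes with 1 mark alone is not given, so 5 against 2 cannot be read as a leaning of the network towards H3K27me3. Narrow peaks of each mark reached the body of 2 genes, against 8.5% of all genes for H3K27me1 and 8.25% for H3K27me3. None of these differences was tested.

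By family, the other NF-YB genes were marked unevenly. NF-YB3, which is known for promoting flowering, lay 100% under both marks. NF-YB1 was covered 36.9% by H3K27me3 and 0% by H3K27me1. In all, H3K27me1 touched 1 of the 8 bodies and H3K27me3 3, against 22.7% and 26% of all genes. NF-YB2, which lies near L1L on chromosome 5, had 0% of both in its body and flanks. The 7 BBM relatives of the AINTEGUMENTA and PLETHORA group had at most 8.49% of the body under either mark. H3K27me1 touched 2 of these bodies and H3K27me3 1, against 22.7% and 26% of all genes. Their flanks held H3K27me1 in 5 genes and H3K27me3 in 6, against 55.4% and 61.6%. These small counts were not tested. Of the 3 VAL genes, which encode B3 repressors of the LAFL genes, H3K27me3 touched 1 body (against 26% of all genes). It was that of VAL2, with 2.33%. VAL2 had H3K27me3 over 82.6% of its flanks and no H3K27me1. Its strongest H3K27me3 peak had a fold of 1.59, below the list median of 1.64. VAL1 had 23.7% of its flanks under H3K27me1 and 26.0% under H3K27me3, and VAL3 had neither mark in body or flanks. In all, the flanks held H3K27me1 in 1 of the 3 VAL genes and H3K27me3 in 2, against 55.4% and 61.6% of all genes.

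Among the 7 seed transcription factors, H3K27me1 touched 3 bodies and H3K27me3 5, and among the 6 regulators of embryo identity 4 and 3, against 22.7% and 26% of all genes. These counts take any overlap of at least 1 bp, and for RKD4 0.916% of the body under H3K27me1 was enough. Counts at a larger overlap are not given for the network. No test was made of these counts. WRI1, which drives oil synthesis in the seed, had 30.6% of its body under H3K27me1 and 40.6% under H3K27me3. Narrow peaks covered 22.3% and 27.1% of it. The MADS-box gene AGL18 was covered 30.6% and 42.4%, with narrow peaks over 6.02% and 7.62%. MYB118, a seed MYB factor, had 53.5% of its body under H3K27me1 and 4.25% under H3K27me3. The related MYB115 had 29.2% and 27.3%. bZIP67, a leucine zipper factor of the maturing seed, had 43.6% and 11.6%. bZIP10, a leucine zipper factor that can bind ABI3, had 32.6% under H3K27me3 and 0% under H3K27me1.

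**Figure D4:**
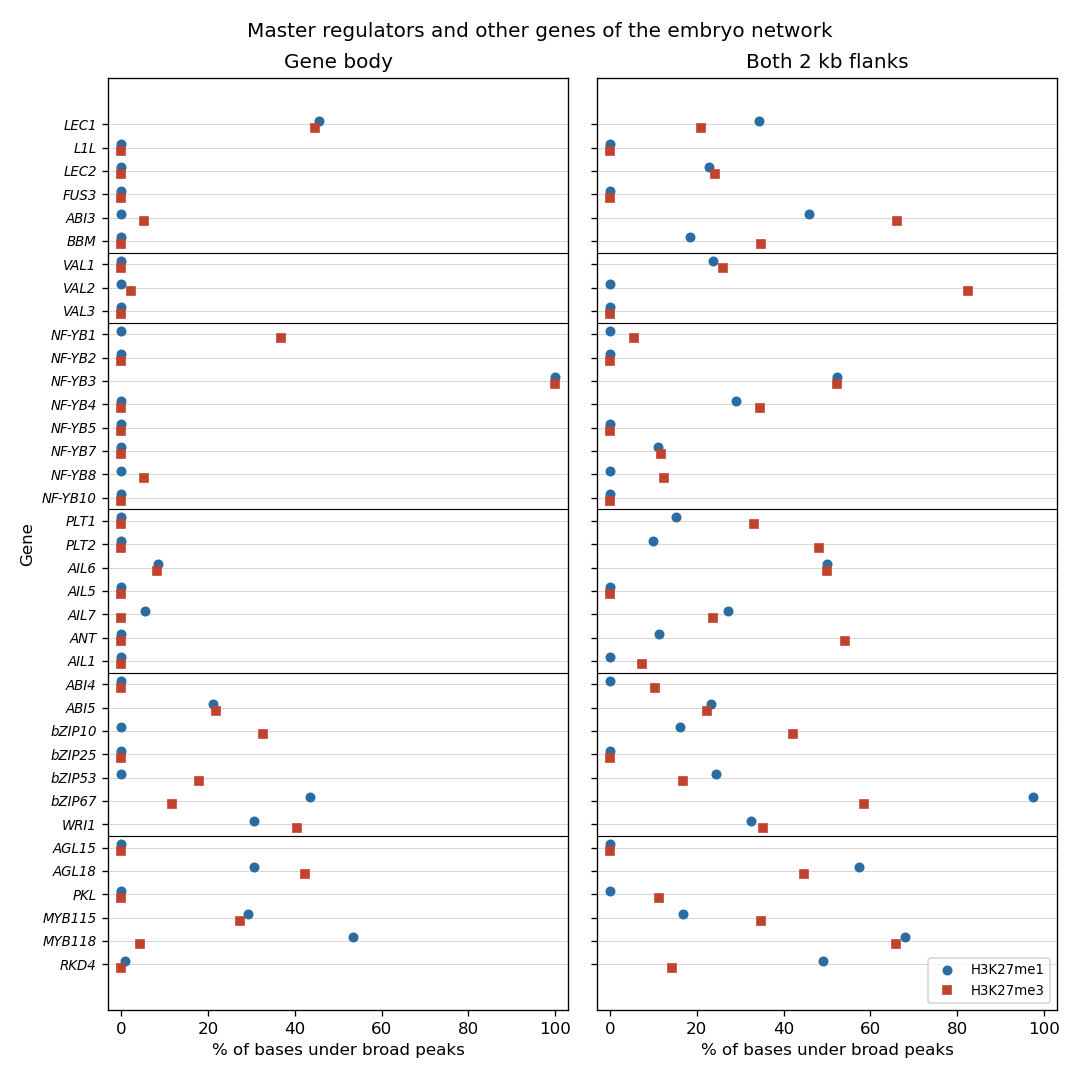
Percentage of bases under broad peaks in the gene body (left) and both 2 kb flanks (right) for the 6 master regulators at the top and 31 further genes in 5 lists below, with H3K27me1 as blue circles and H3K27me3 as red squares. Most bodies are at 0%, NF-YB3 is at 100% for both marks, and flank values are spread between 0% and 97.4%.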

How the data were processed

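The data were 4 deposited peak lists, a broad and a narrow one per mark. The labels of the 3 immunoprecipitations of a mark all name the same pair of lists. MACS2 2.1.0, deepTools 2.5.0.1, Bowtie2 2.1.0, Trim Galore 0.4.1, SAMtools 1.3, bedtools and Picard, and the build TAIR10, are named without role or order, per the submitters' processing notes. The way samples and inputs were combined for the peaks is not stated in the labels. The deposited fold enrichment (a ratio) and −log10 q-value of each peak are the authors' values, and the deposited narrow lists also give a summit position as an offset in bp. Ranks and filters on them stay within 1 list. Weak peaks are included: the −log10 q went down to 1.02 in the broad and 2.00 in the narrow lists. No depth or replicate spread could be computed.

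Peaks were merged and covered bases counted with Python 3.11.15, NumPy 2.4.6 and pandas 2.3.3, after a check of the counting on simulated intervals. A peak counted with at least 1 bp of overlap. A table of 38312 genes on TAIR10.1 gave gene names and intervals, and all 37 loci were found. Sliding the narrow peaks in steps of 100 bp up to 3000 bp gave the lowest share in protein-coding genes without any shift (0 bp) for 10 of 10 pairs of mark and chromosome, so both builds were taken to share their numbering. No gene coordinates are printed. Alternatives were the narrow lists, −log10 q minimums of 2 and 5, the upper 50% of peaks by fold, an overlap of 100 bp, flanks of 1 kb, and flanks without neighbouring genes.

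The members and lists were chosen with earlier results of these data known. All 6 members were named, with the 2 genes of most similar binned coverage for each marked member and neighbouring genes touched by their peaks. Of 31 network genes, 9 had at least 20% of the body covered by either mark, and the 8 with the most were named by this rule. Other network genes named (NF-YB2, VAL1, VAL2, VAL3 and RKD4) were chosen after their values were seen. So were the comparisons by gene-free flank and the count of genes with peaks in both flanks.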

Additional observations from a re-analysis of the deposited data

How the results depend on the processing

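The counts depended on the threshold. With broad peaks of −log10 q of at least 5, 0 genes of the set had either mark in the body, in a flank or in both flanks. Of all genes, 2.58% (H3K27me1) and 1.1% (H3K27me3) had it in both flanks. The shares of all genes for the body or any flank are not given at this setting. The fall to 0 therefore cannot be called particular to these genes. With the narrow lists, 0 had either mark in the body (all genes 8.5% and 8.25%) or in both flanks (all genes 7.01% and 6.08%). A flank held H3K27me1 in 2 genes and H3K27me3 in 2 (all genes 31.6% and 33.4%). With the upper 50% of broad peaks by fold, H3K27me1 lay in a flank of 2 genes, for which the share of all genes is not given. It lay in both flanks of 0 (all genes 7.48%), and H3K27me3 in both flanks of 2 (7.78%). With −log10 q of at least 2, H3K27me1 lay in both flanks of 1 gene (13.7%), and with flanks of 1 kb each mark lay in both flanks of 1 gene, LEC1 (13.6% and 14.9%). The other counts under the alternatives run stayed within 1.5 times the reported ones. Without bases in neighbouring genes, the H3K27me3 count in both flanks was 3 (all genes 19%) in place of 4, since the left peak of BBM lies in IRX3. Of 17 coverage values of single genes above 0, all 17 were lower with the narrow lists, 13 of them at 0, and all 17 were at 0 with −log10 q of at least 5. No paired analysis was possible because the peak lists hold no value per sample. The lack of sample values and of depth limits every statement to the lists.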
